A study of Arabidopsis thaliana with 6 samples.

Results

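The genes described here are 8 loci of *Arabidopsis thaliana* grouped as precursors of small secreted peptides. They are 4 genes of the PIP type (AT4G28460, AT4G37290, AT2G23270 and AT1G49800), the RALF precursor genes RALFL33 (AT4G15800) and RALFL34 (AT5G67070), and the small genes AT1G51915 and AT1G51920, which adjoin each other. Whether AT1G51915 and AT1G51920 encode secreted peptides was not tested. All 8 had a probe set naming a single gene, 1 each, out of 13355 genes measured in this way on the array. The 8 were chosen by family and position with their log2 differences between protease IV and mock already known. Those differences are therefore given as a description, with no test. Whole seedlings were grown in liquid medium in 24-well plates, and the medium was renewed on day 8. At 10 days old they were exposed for 1 h to protease IV at 20 nM or received no protease. Protease IV is a serine protease that the bacterium *Pseudomonas aeruginosa* secretes, here purified from strain PA14 according to the study's title. The second group, termed nontreated in the sample titles and mock control in other labels, is called mock here. Each group had 3 arrays labelled as biological replicates. The labels name neither the accession nor the genotype of the plants, and do not say how wells were divided among the replicates, so the p-values reflect only how these samples vary, and part of that variation may be technical.

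PIP peptides (PAMP-induced secreted peptides) are cut from the C-terminal end of short secreted precursors. They act outside the cell through receptor kinases such as RLK7 and amplify responses that begin when a plant detects microbial molecules. RALF peptides (rapid alkalinization factors) are small, cysteine-containing peptides that raise the pH outside the cell and bind receptor kinases of the FERONIA family together with LRX proteins of the cell wall. Some RALF precursors are cleaved by the subtilase S1P, and RALF peptides are known both for control of growth and for modulation of immune receptors.

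Values are log2 expression from robust multi-array averaging, in which signals near background are compressed. The lower quartile of all probe sets lay between 3.97 and 4.05 on the 6 arrays, and a mean under 3.97 is called near background here. Across genes, arrays of 1 group correlated at 0.996 to 0.998 and arrays of different groups at 0.953 to 0.963. Of the 13355 genes, 1525 were higher and 3039 lower in protease IV-treated seedlings by limma at an adjusted p under 0.05, and the median difference was -0.06. With cyclic loess between the arrays, 2060 were higher and 1514 lower, so the balance of the calls depends on the scaling. Probe sets differ in their affinity, so levels are compared between groups for the same gene and not between genes. The sequences of the peptides and promoters were not analysed here.

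Transcripts of 3 of the 4 PIP-type genes were higher after 1 h of protease IV, and no treated array overlapped with mock. AT4G28460, on chromosome 4 (TAIR10.1, 14065992 to 14066661), had log2 values of 6.79, 6.67 and 6.74 in protease IV-treated seedlings, against 4.09, 4.28 and 4.30 in mock seedlings. The lowest treated array stood 2.37 above the highest mock array, the widest gap of the PIP type. The difference was 2.51 on the log2 scale (SE 0.082), or 5.69-fold, and the SD was 0.059 in protease IV and 0.12 in mock (n = 3 each). It ranked 208th of all genes from the largest rise.

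AT4G37290, also on chromosome 4 (17549607 to 17550257), had log2 values of 5.62, 5.91 and 5.74 in protease IV-treated seedlings, against 4.13, 4.26 and 4.29 in mock seedlings. The groups did not overlap, and the difference was 1.53 (SE 0.091) or 2.88-fold. AT2G23270, on chromosome 2 (9903215 to 9903845), had 5.63, 5.996 and 5.88 in protease IV-treated seedlings and 4.54, 4.46 and 4.87 in mock seedlings. Its difference was 1.21 (SE 0.12) or 2.32-fold, and mock replicate 3 came within 0.76 of the lowest treated array. The mock means of these 3 genes lay between 4.22 and 4.62, just above the lower quartile of the arrays, so the folds are those of compressed signals and may understate the change.

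The remaining gene of the PIP type, AT1G49800, on chromosome 1 (18438012 to 18439115), gave no such difference. Its values were 3.72, 3.62 and 3.52 in protease IV-treated seedlings, against 3.70, 3.56 and 3.83 in mock seedlings. The groups overlapped and both means were near background, at 3.62 in protease IV and 3.70 in mock. The array therefore gives no measure of this transcript in either group. It was also the only one of the 8 whose higher group mean was under 5.

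The largest differences belonged to the pair of small genes on chromosome 1, which are annotated as protein-coding and have no gene name in the annotation used. AT1G51920 (19294184 to 19294612) had log2 values of 9.06, 8.76 and 9.12 in protease IV-treated seedlings, against 4.85, 4.60 and 4.91 in mock seedlings. That is a difference of 4.19 (SE 0.11), or 18.2-fold, and it ranked 59th of all genes from the largest rise. AT1G51915 (19293478 to 19294117) had 7.22, 6.92 and 7.15 in protease IV-treated seedlings, against 3.32, 3.44 and 3.82 in mock seedlings. Its mock mean, 3.53, was near background, so the 11.9-fold difference (3.57 on the log2 scale, SE 0.13) is that of the measured values and is not exact. The closest arrays of the groups were 3.84 apart for AT1G51920 and 3.09 apart for AT1G51915. The annotated spans of the 2 genes are 66 bases apart, and whether their probe sets detect 1 transcript or 2 was not tested.

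The RALF genes were bright in both groups and differed little between them. RALFL34, on chromosome 5 (26767599 to 26768956), encodes a peptide known as a ligand of the receptor kinase THE1 in root development. Its values were 9.49, 9.56 and 9.67 in protease IV-treated seedlings, against 9.94, 10.06 and 10.01 in mock seedlings. Every treated array was below every mock array, by at least 0.27, and the difference was -0.43 (SE 0.078), or 1.35-fold lower. In whole seedlings, fewer cells that express a gene and less RNA per cell cannot be told apart.

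RALFL33, on chromosome 4 (8984787 to 8985995), encodes a RALF peptide that binds the receptor kinase FER. It had 10.05, 9.66 and 10.06 in protease IV-treated seedlings, against 9.62, 9.70 and 9.66 in mock seedlings. Treated replicates 1 and 3 were above all mock arrays, whereas replicate 2 lay inside the mock range. The difference was 0.26 (SE 0.11), with an SD of 0.23 in protease IV and 0.040 in mock (n = 3 each). The value depended on the array set and the scaling: it was 0.39 without protease IV replicate 2, 0.43 with cyclic loess and 0.18 after centring on bacterial control probe sets.

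**Figure D1:**
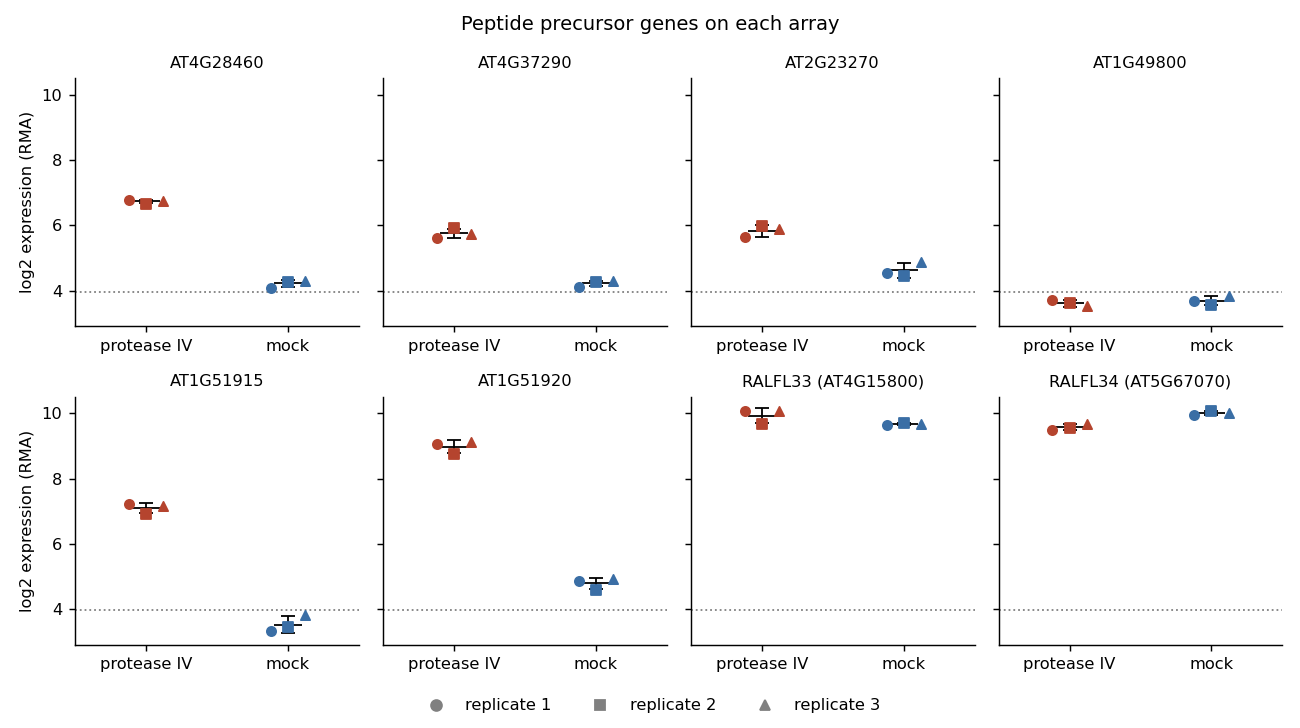
Log2 expression of the 8 genes on each array, protease IV left and mock right in each panel, with replicate 1 as a circle, 2 as a square and 3 as a triangle. Black marks are group means with SD (n = 3), and the dotted line at 3.97 is the lowest lower quartile of the arrays. The groups are apart in 6 panels and overlap for AT1G49800 and RALFL33.

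As a count, 5 of the 8 genes were among those called higher, against 11.4% of all genes tested, and 1 was among those called lower, against 22.8%. The groups did not overlap in 5 genes that were higher, against 14.7% of all genes, and in 1 that was lower, against 31.0%. The 5 higher genes differed by at least 2-fold, against 4.51% of all genes. RALFL33 was also among the genes called higher without protease IV replicate 2, with cyclic loess and with a robust variance trend in limma. The choice of the genes used these same differences, so nothing is read from the counts.

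**Figure D2:**
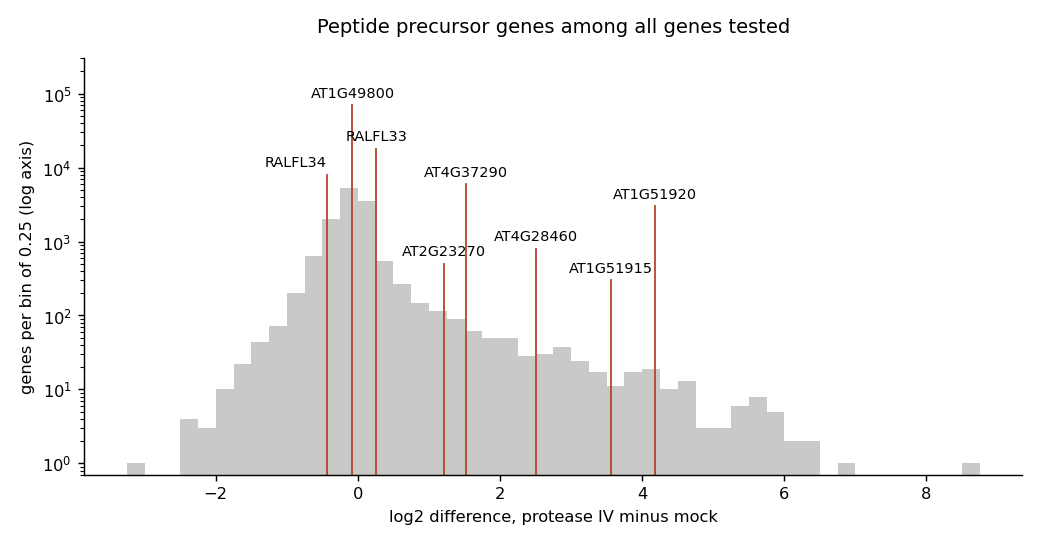
Number of genes (log axis) in bins of the log2 difference, protease IV minus mock, for all 13355 genes, with the 8 genes described here marked by lines whose heights carry no value. The line for RALFL34 is at -0.43, those for AT1G49800 and RALFL33 lie in the body of the distribution, and the lines for the other 5 lie in the right tail between 1.21 and 4.19.

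The spread among arrays did not follow 1 array throughout. Within the protease IV group, replicate 2 was the lowest of the 3 arrays for AT1G51920 (-0.22 from the group mean), AT1G51915 (-0.18), RALFL33 (-0.27) and AT4G28460 (-0.06). The same array was the highest for AT4G37290 (0.15) and AT2G23270 (0.16). Within mock, replicate 3 was the highest array for 6 of these genes, with the widest step above the group mean in AT1G51915 (0.30) and AT2G23270 (0.25).

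Among the other RALF precursors, a family of signal peptides with 32 further loci, 8 were measured, of which 1 rose and 4 fell in limma (adjusted p under 0.05), against 11.4% and 22.8% of all genes. With cyclic loess 2 fell. The median difference of the 8 was -0.23, against -0.06 over all genes. RALFL24 had 6.16, 6.67 and 6.81 in protease IV-treated seedlings, against 7.34, 7.25 and 7.38 in mock seedlings, and fell by 0.78 (SE 0.14; limma, adjusted p = 0.00188). The first treated array was the lowest, and the groups did not overlap. RALFL32 fell by 0.29 (limma, adjusted p = 0.0123) and RALFL31 fell by 0.26 (limma, adjusted p = 0.0416). With cyclic loess between the arrays, or without mock replicate 1, RALFL24 and RALFL27 were called lower and RALFL32 and RALFL31 were not. RALFL31 also lost its call with the replicate number as a block and without each of 4 other single arrays, where its adjusted p in limma was 0.0584 to 0.139.

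RALFL27 fell by 0.53 (limma, adjusted p = 0.0053), but its means, 3.40 in protease IV and 3.93 in mock, were both near background. RALFL18 had 4.36, 4.14 and 4.37 in protease IV-treated seedlings, against 3.70, 3.75 and 4.05 in mock seedlings, and rose by 0.45 (SE 0.11; limma, adjusted p = 0.00783). Its mock mean of 3.84 was near background. RALFL25, RALFL26 and RALFL28 were not called and had both means near background, so 4 of the 8 were near background in both groups.

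Other precursor families gave few values. None of 6 listed IDA-type precursors, which resemble PIP precursors in their C-terminal end, and none of 6 PROPEP danger peptide precursors was analysed here. Of 6 measured CLE precursors, which signal in meristems and vascular tissue, limma called 0, of which 0 passed at an unadjusted p under 0.05 either, although 1 was called higher with cyclic loess; their differences lay between -0.17 and 0.10. STOMAGEN, a secreted peptide that promotes stomata and the only one measured of 48 further precursors, fell by 0.36 (limma, adjusted p = 0.0154). It was not called with cyclic loess or without mock replicate 1, and 3 of 3 measured stomatal lineage markers fell beside it, against 22.8% of all genes, with differences of -0.31 in MUTE, -0.51 in SPCH and -0.61 in FMA. MUTE was not called with cyclic loess or without any of 5 single arrays. The part of these markers in the result was not tested.

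Of 24 listed receptor and co-receptor genes, 8 were measured, 3 rose and 0 fell, against 11.4% and 22.8% of all genes. The median of the 8 was -0.02. AT4G08850, a listed receptor gene with no name in the annotation used, had 11.90, 11.58 and 12.02 in protease IV-treated seedlings, against 9.63, 9.76 and 9.50 in mock seedlings. Its rise of 2.21 (SE 0.12; limma, adjusted p = 1.36e-07) was the largest of the 8. AT2G39360, likewise unnamed, rose by 1.102 (SE 0.11; limma, adjusted p = 2.60e-05). Whether AT4G08850 or AT2G39360 binds PIP or RALF peptides was not tested.

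FER, the receptor kinase that binds several RALF peptides, had 9.81, 9.81 and 9.75 in protease IV-treated seedlings, against 9.35, 9.35 and 9.40 in mock seedlings. All treated arrays were above all mock arrays, and the rise was 0.42 (SE 0.069; limma, adjusted p = 0.000788). THE1, the receptor kinase for the RALFL34 peptide, had 7.14, 7.27 and 7.29 in protease IV-treated seedlings, against 7.43, 7.34 and 7.41 in mock seedlings. The groups did not overlap, but the difference of -0.16 was not called (limma, adjusted p = 0.138). ANX1, ANX2, AT2G21480 and AT4G39110 were near background in both groups. RLK7, BAK1 and the HAESA family of receptors were not analysed here.

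Of 11 LRX genes, whose wall proteins bind RALF peptides, 8 were measured; 1 rose and 1 fell, against 11.4% and 22.8% of all genes, and 5 were near background in both groups. The calls were AT2G15880 at 0.26 (limma, adjusted p = 0.0195) and AT5G25550, which fell by 0.24 (limma, adjusted p = 0.0408). Neither had a mean above 3.89 in any group. AT2G15880 was not called without protease IV replicate 1 or mock replicate 2, nor with arrays centred on the bacterial controls (limma, adjusted p = 0.226). AT5G25550 was called with all arrays and without mock replicate 2 but not without any other single array, nor with the replicate number as a block (limma, adjusted p = 0.0649).

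Subtilases are proteases, some of which mature secreted precursors. Of 9 measured subtilases, from a list of 11, 2 rose and 3 fell, against 11.4% and 22.8% of all genes. The 9 are too few for a comparison of these shares. SBT3.3, a subtilase linked to immune priming, had 5.38, 5.48 and 5.70 in protease IV-treated seedlings, against 4.44, 4.01 and 4.69 in mock seedlings, and rose by 1.14 (SE 0.15; limma, adjusted p = 0.000211). SBT3.5 rose by 0.83 (limma, adjusted p = 6.68e-05). S1P, which cleaves RALF precursors, had 6.04, 6.06 and 6.02 in protease IV-treated seedlings, against 6.46, 6.36 and 6.46 in mock seedlings. It fell by 0.38 (SE 0.071; limma, adjusted p = 0.00176), with no overlap of the groups. ARA12 fell by 0.68 (limma, adjusted p = 4.99e-05) and SBT1.3 fell by 0.38 (limma, adjusted p = 0.00781), though SBT1.3 was not called with cyclic loess.

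Of 20 genes listed downstream of the receptors only 3 were measured, and all 3 rose. BIK1, a cytoplasmic kinase that relays receptor signals, had 10.99, 10.71 and 10.88 in protease IV-treated seedlings, against 9.27, 9.27 and 9.19 in mock seedlings (difference 1.61; limma, adjusted p = 1.48e-07). WRKY53 and WRKY22, transcription factors of the early immune response, rose by 3.78 and 3.37. The percentage of all genes called higher was 11.4%, and 3 genes do not describe the pathway.

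**Figure D3:**
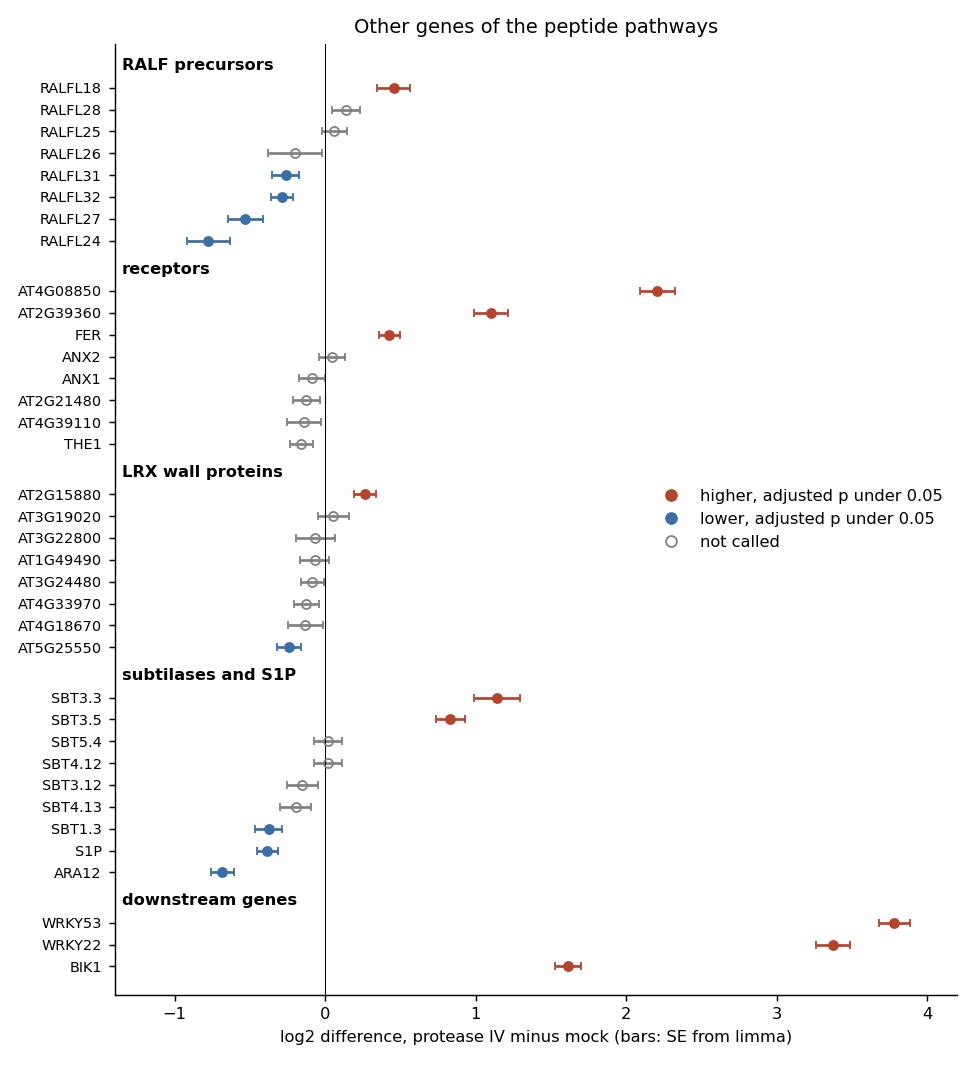
Log2 difference, protease IV minus mock, with its SE from limma, for measured RALF precursors other than RALFL33 and RALFL34, receptors, LRX wall proteins, subtilases and downstream genes. Filled red points are called higher and filled blue points lower at an adjusted p under 0.05, and open points are not called; receptors hold 3 red and 0 blue points, and RALF precursors 1 red and 4 blue.

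The chromosomal surroundings of the 8 genes were described with the 5 protein-coding genes on each side. Of 36 measured neighbours, 5 rose and 12 fell in limma, against 11.4% and 22.8% of all genes. A called difference of at least 2-fold was seen in 2 of the 36, against 5.68% of all genes. The number called lower was 1 with cyclic loess, and 5, 7, 2 and 3 without protease IV replicate 1, protease IV replicate 3, mock replicate 1 and mock replicate 2. The number called higher was 3 without protease IV replicate 3 or mock replicate 3 and 2 without mock replicate 1 or mock replicate 2. AT1G51890 stands 4 genes before AT1G51915, with 14679 bases between their spans. It had 10.48, 10.15 and 10.42 in protease IV-treated seedlings, against 4.96, 5.18 and 4.50 in mock seedlings, a rise of 5.47 (SE 0.16; limma, adjusted p = 1.15e-09). Of the measured genes between them, AT1G51900 rose by 0.24 (limma, adjusted p = 0.0235) with both means near background, and AT1G51910 differed by 0.04 and was not called (limma, adjusted p = 0.770).

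AT4G28420 stands 4 genes before AT4G28460, with 8399 bases between them, and rose by 1.25 (SE 0.12; limma, adjusted p = 2.24e-05). Its mock mean, 3.61, was near background. The 3 measured genes between them differed by -0.13, -0.28 and -0.34. HAE, the gene of the IDA receptor, stands 4 genes after AT4G28460 and was not analysed here. No measured neighbour of AT4G37290, AT2G23270, AT1G49800, RALFL33 or RALFL34 was called with a difference of 2-fold or more, and the largest of their differences was -0.51, in AT1G49840.

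**Figure D4:**
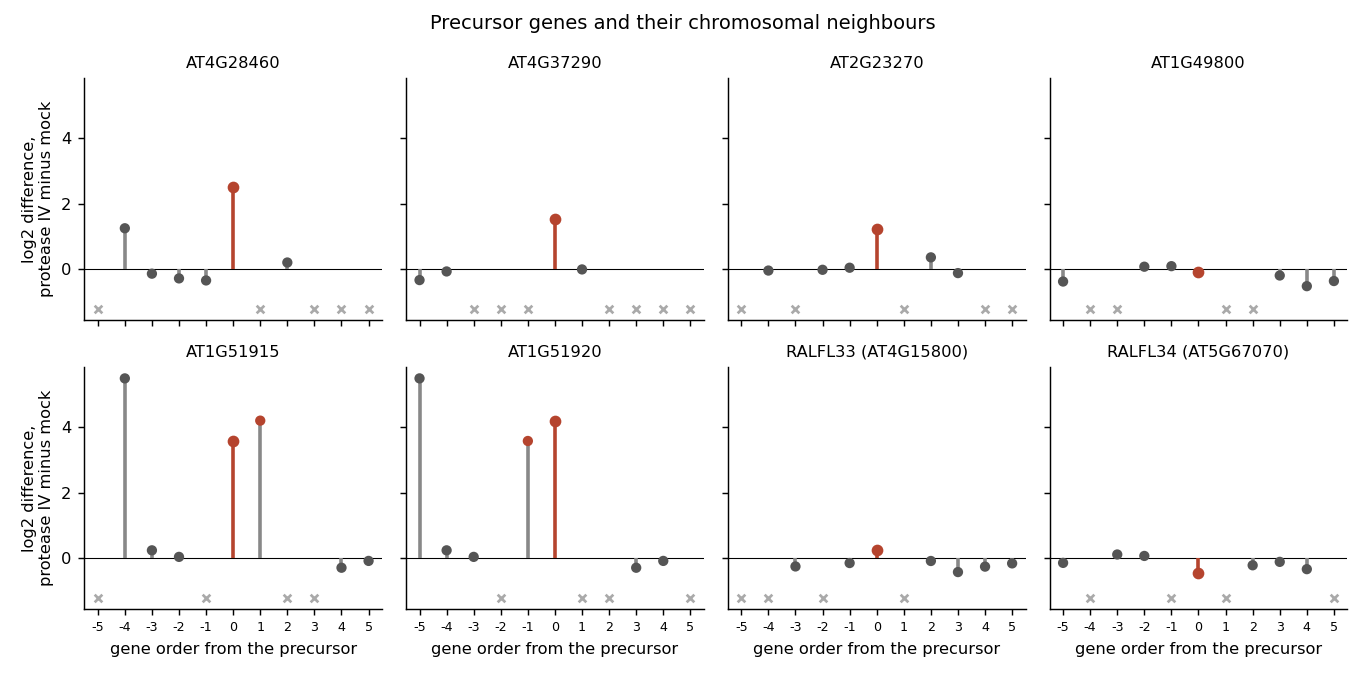
Log2 difference, protease IV minus mock, of each of the 8 genes (position 0) and of the 5 protein-coding genes on each side, in gene order. Red points are the 8 genes, grey points are neighbours, and crosses near the foot of a panel are neighbours not analysed here. AT1G51890 at 5.47 and AT4G28420 at 1.25 are the neighbours above 1.

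The genes whose profiles over the 6 arrays were nearest to each of the 8 genes were found by the Euclidean distance between log2 values after subtraction of each gene's mean. This distance mostly weighs how large the difference between the groups is. AT4G28460 was nearest to AT5G43520 (distance 0.13), then to BZIP60 (0.16), a transcription factor of the unfolded protein response, and AT5G41100 (0.20). AT4G37290 was nearest to AT4G00295 (0.14), AT2G16900 (0.17) and AT3G09000 (0.18). AT2G23270 was nearest to AT4G28420 (0.10), the gene described above as a neighbour of AT4G28460, followed by AT3G49370 (0.23) and AT1G76360 (0.24).

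For AT1G51915 the nearest were AT3G09830 (0.25), AT4G36500 (0.36) and AT5G67340 (0.37), and for AT1G51920 they were AT1G50740 (0.21), AT1G58420 (0.25) and AT2G27660 (0.25). The pair did not have each other as a candidate, since the 8 genes were left out of the search. RALFL34 was nearest to AT5G16240 (0.05), AT2G47630 (0.06) and CCB3 (0.06). RALFL33 was nearest to AT3G04360 (0.08), AT3G46920 (0.09) and AT1G53980 (0.09). AT1G49800 was nearest to AT4G16020 (0.04), AT4G19940 (0.05) and AT3G05540 (0.05), all with differences within 0.10 of 0.

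Markers of both shoot and root were present: RCA of the leaf averaged 13.94 in protease IV and 14.07 in mock, and PYK10 of the root averaged 12.46 in protease IV and 12.63 in mock. The 4 measured pollen markers of 6 were near background in both groups, and 0 of them were called in limma (0 at an unadjusted p under 0.05). Of 4 measured leaf markers of 7, 3 fell, against 22.8% of all genes, and the sum of the 4 on the linear scale was 28120 to 29737 in protease IV, against 35965 to 37071 in mock. For 4 measured root markers of 7, of which EXPA18 alone fell (by 0.34; limma, adjusted p = 0.0253), the sum was 5716 to 5812 in protease IV, against 6248 to 6630 in mock. PYK10, which was not called (limma, adjusted p = 0.0812), made up 97.4% to 97.9% of that sum on the arrays, and AT5G66390 and EXPA7 differed by 0.12 and 0.10 in the other direction, also not called. With cyclic loess HPR of the leaf and EXPA18 were not called, and EXPA18 also lost its call without any of 4 single arrays. The stomatal lineage sum was 139 to 168 in protease IV, against 210 to 229 in mock. RMA gives no value of 0, so no marker was at 0. The actin control had a 3-prime minus 5-prime difference of 1.73, 1.58 and 2.12 in protease IV, against 1.58, 1.58 and 1.57 in mock (exact two-sided permutation p = 0.1, the smallest that 20 relabellings allow, or 0.3 adjusted over the 3 controls). The GAPDH control, with a difference of 0.09 in protease IV and 0.01 in mock (exact permutation p = 0.3), and the ubiquitin control, with 0.17 in both (exact permutation p = 0.8), overlapped between the groups. Between the groups, the leaf, root and stomatal sums were lower in protease IV, as were RALFL34, RALFL24, RALFL32 and S1P. The actin difference was higher there. Within the protease IV group, the actin difference was largest in replicate 3, at 2.12. In that array RALFL34 (9.67), RALFL24 (6.81) and RALFL32 (8.17) had their highest treated values, and S1P (6.02) had its lowest. The root sum is mostly PYK10, and the GAPDH and ubiquitin differences overlapped between the groups. The part of these markers and controls in those results was not tested.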

How the data were processed

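RNA of each sample was hybridized to 1 Affymetrix array. The authors deposited log2 expression values per probe set, summarised by RMA in version 1.36.1 of affy, as the submitters' processing notes state; no source used here gives the settings. RMA quantile-normalizes the arrays, so a change in total mRNA cannot be read from these values.

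Of 22810 probe sets, 13513 named a single gene in GEO's platform annotation, 503 named several, 8730 were unnamed here and 64 were controls. Entrez numbers matched 13436 to RefSeq (TAIR10.1), which gave symbols, spans and gene order. For 147 genes with several probe sets the one with the highest mean was used, which left 13355 genes. Differences, protease IV minus mock, were fitted with limma 3.58.1 in R 4.3.3 (lmFit, eBayes) on all 6 arrays. Tests were two-sided and adjusted by Benjamini-Hochberg over all 13355 genes, with a threshold of 0.05. SEs come from this fit. Precision is limited by the number of arrays. The step was tested on simulated data.

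The 8 genes and all lists were chosen with earlier results of these data known. Lists were matched by locus or symbol; symbol matches to unrelated genes were dropped after they were seen. Named are the 8 genes, up to 4 called genes per list, every measured gene of lists with 5 or fewer, neighbours called at 2-fold or more and the 3 nearest profiles per gene. Others were named to complete a count, after their values were seen. Alternatives were the replicate number as a block, fits without 1 array each, median centring, cyclic loess, centring on 18 bacterial control probe sets, genes with a higher group mean of at least 5, the mean of a gene's probe sets, and a robust variance trend.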

Additional observations from a re-analysis of the deposited data

How the results depend on the processing

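Over the 13 alternatives the difference ranged from 2.43 to 2.63 for AT4G28460, 1.45 to 1.62 for AT4G37290, 1.13 to 1.34 for AT2G23270, 3.46 to 3.71 for AT1G51915 and 4.09 to 4.36 for AT1G51920, and over the 12 that kept it from -0.16 to -0.01 for AT1G49800; the choice of the genes used these differences, so these are descriptions. By construction, the replicate block, the filter at 5, the mean of probe sets and the robust variance trend leave these differences unchanged. The ranges come only from leaving out an array or from rescaling. RALFL33 ranged from 0.18 with arrays centred on the bacterial controls to 0.43 with cyclic loess, and RALFL34 from -0.51 to -0.26 under the same pair. Cyclic loess called 2060 genes higher and 1514 lower, 2 of the other RALF precursors lower, 1 CLE precursor higher, 0 of the 48 further precursors lower and 1 neighbour lower; with it 42.4% of all calls were lower, against 66.6% in the main result and 74.5% with the bacterial controls. Centring on those controls called 0 LRX genes and 2 neighbours higher. The filter for genes of at least 5 on the log2 scale removed AT2G15880, AT5G25550, RALFL18 and the neighbours AT4G28420, AT1G51900 and AT2G23300. With it 0 LRX genes were called higher and 0 lower, 0 RALF precursors higher and 2 neighbours higher. Those counts follow from the removal and say nothing about the calls of the removed genes. Same-numbered arrays correlated at 0.04, -0.10 and -0.18 in their deviations from the group means, so the numbers were not taken to pair samples, and of the protease IV arrays only replicate 1 correlated best with its own number. With the replicate block 1441 genes were called higher and 2738 lower, 0 LRX genes lower and 3 neighbours higher. With each array left out in turn, the counts ranged from 0 to 1 for LRX genes higher and 0 to 1 lower, from 2 to 4 for RALF precursors lower, from 0 to 1 for the further precursors lower, from 2 to 5 for neighbours higher and from 2 to 12 for neighbours lower. No named list or neighbour gene reversed its direction while called. With 3 arrays a group, precision is limited; signals near background limit what the dim genes can show, and the cause of these changes was not tested.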
